A study of Mus musculus with 8 samples.

Results

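The 9 genes described here encode amino acid transporters of the proximal tubule: Slc3a1, Slc7a9, Slc1a1, Slc6a18, Slc6a19, Slc6a13, Slc3a2, Slc7a7 and Slc7a8. They were taken by gene symbol from a table of 54532 genes, and all 9 were among the 13376 genes with a mean of at least 0.5 FPKM that entered the test. FPKM is a read number scaled by gene length and by library size, so its values can be set side by side between genes of different length. The libraries are kidney mRNA of ICR mice, an outbred stock, with 4 libraries after bisphenol A (BPA), a monomer of polycarbonate plastic with weak oestrogenic activity, and 4 after vehicle. The sources used here do not give dose, route, duration, age or what the vehicle was. Nothing in the labels ties each library to its own animal, so the p-values speak of the spread among these 8 samples, and that spread may be technical.

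The proximal tubule reclaims nearly all filtered amino acids. Carriers of the brush border take them up from the filtrate, and exchangers and uniporters of the basolateral membrane pass them to the blood. Several of these carriers work as pairs: a glycoprotein heavy chain, Slc3a1 (rBAT) or Slc3a2 (4F2hc), brings a light chain to the membrane and is joined to it by a disulphide bridge. Slc3a1 with Slc7a9 takes up cystine and dibasic amino acids, and defects in either cause cystinuria. Slc3a2 with Slc7a7 exports dibasic amino acids, and defects in Slc7a7 cause lysinuric protein intolerance. Slc6a19 (B0AT1) takes up neutral amino acids in the early tubule and is the carrier lost in Hartnup disorder, and Slc6a18 (B0AT3) does so in the late tubule.

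In the annotation of the table (GRCm38), Slc3a1 lies at chr17:85028347-85064243 on the plus strand, Slc3a2 at chr19:8706882-8723369 on the minus strand and Slc7a9 at chr7:35448796-35466036 on the plus strand. Slc1a1 lies at chr19:28835049-28913960 and Slc6a13 at chr6:121300227-121337733, both on the plus strand. Slc7a7 (chr14:54369442-54417780) and Slc7a8 (chr14:54722209-54781946) are both on the minus strand, 304428 bases apart. Slc6a18 (chr13:73661752-73678023) and Slc6a19 (chr13:73679745-73704865) are direct neighbours on the minus strand, 1721 bases apart with no annotated gene between them. These overlaps matter for counting, because the sources used here do not give the strand used in counting, and reads of a gene and of its partner on the opposite strand cannot then be told apart. Slc3a1 shares 601 transcript bases with Prepl (27.9 to 56.6 FPKM), Slc7a7 shares 230 with Oxa1l (16.2 to 21.1 FPKM), and Slc1a1 shares 1228 with 4430402I18Rik (0.572 to 1.16 FPKM).

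Promoter sequence from RefSeq (GRCm38.p6) was matched by symbol for 8 of the 9 genes, in 15 windows of 250 bases before an annotated start. The windows were searched on both strands for a half-site of HNF1 (GTTAAT), for an HNF4 site (CAAAGTCCA) and for a C/EBP-ATF response element (TGATGNAA), motifs of factors that are abundant in the proximal tubule or respond to amino acid shortage. Of 32851 windows of this length over all genes, 6.43% held the HNF1 half-site, 0.384% the HNF4 site and 3.45% the C/EBP-ATF element. The windows below are shown because Slc3a1 and Slc7a7 had the highest Pearson's r of log2 levels across the libraries among pairs of the 9 genes (0.90). Their matches differ. The windows shown are chr17:85028097-85028346 (plus strand) for Slc3a1, and chr14:54417945-54418194 and chr14:54409473-54409722 (minus strand) for the upstream and a downstream start of Slc7a7. Capitals mark the HNF4 site in Slc3a1, the C/EBP-ATF element at the upstream start of Slc7a7 and the HNF1 half-site at its downstream start.
Slc3a1: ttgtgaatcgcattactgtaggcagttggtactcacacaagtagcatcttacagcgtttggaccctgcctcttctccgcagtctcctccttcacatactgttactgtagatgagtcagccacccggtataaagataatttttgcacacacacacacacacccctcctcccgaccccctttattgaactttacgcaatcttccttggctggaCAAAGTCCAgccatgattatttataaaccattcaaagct
Slc7a7, upstream start: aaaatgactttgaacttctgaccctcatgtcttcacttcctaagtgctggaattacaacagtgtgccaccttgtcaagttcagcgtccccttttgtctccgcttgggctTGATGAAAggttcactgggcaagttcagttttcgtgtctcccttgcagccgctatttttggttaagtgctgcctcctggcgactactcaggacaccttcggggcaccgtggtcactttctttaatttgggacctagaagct
Slc7a7, downstream start: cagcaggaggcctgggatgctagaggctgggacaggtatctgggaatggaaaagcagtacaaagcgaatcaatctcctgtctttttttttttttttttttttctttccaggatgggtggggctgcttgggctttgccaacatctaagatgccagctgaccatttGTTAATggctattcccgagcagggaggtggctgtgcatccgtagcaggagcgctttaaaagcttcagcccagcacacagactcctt
A match is a run of letters in this window and was not measured as a bound site. The other windows with a match were 1 more of Slc7a7 with the C/EBP-ATF element and 1 of Slc6a13 with the HNF1 half-site.

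The libraries were similar in depth and differed in other ways. Reads recovered from the table numbered 15944081 to 17351540 per library, and the 9 genes had 633 to 10295 reads each in a library, so counting error was small beside the spread between libraries. The mitochondrial share of reads was 7.02% to 8.33% in vehicle and 9.66% to 14.2% in BPA, highest in BPA replicate 4, which also had the fewest genes above 0 (17174). Across all tested genes the change with BPA fell as GC content rose (Spearman correlation -0.40, across genes, which are not independent replicates), and the 9 genes had a GC content of 48.0% to 54.7% against a median of 49.7%. Arntl, a core clock gene, was at 2.22 to 4.27 FPKM in replicates 1 and 2 of both groups and at 0.106 to 0.550 FPKM in replicates 3 and 4. Vehicle replicate 4 held 103 FPKM of the skeletal muscle transcript Acta1, which was at 0 in the 7 other libraries. The part of these differences in the results was not tested.

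The kidney libraries carried the proximal tubule markers in full: all 12 markers on the list were detected, at a summed 5698 to 7018 FPKM. Their mean level did not differ detectably between BPA and vehicle (difference 0.02 on the log2 scale, 2-sided exact permutation p = 0.8286, 4 against 4 libraries), and 4 of 12 were higher in BPA. In bulk RNA, fewer cells of a type and less RNA per cell cannot be told apart. Of the 4 markers of the early segment, all were higher in BPA, with summed levels of 180 to 260 FPKM in vehicle and 207 to 504 FPKM in BPA (difference 0.49, exact permutation p = 0.200). Of the 5 markers of the late segment, 4 were higher on the log2 scale, with sums of 372 to 580 FPKM in vehicle and 456 to 590 FPKM in BPA (difference 0.36, exact permutation p = 0.314). Cyp7b1 weighed most in this difference, with a log2 change of 1.28 and 2.39 to 72.7 FPKM in vehicle. The other late markers had changes of -0.05 to 0.34. Slc22a7, counted as higher, was not so in mean FPKM (115 in vehicle, 110 in BPA). Among 18 marker lists, the smallest p that 4 against 4 libraries allow is 0.0286 and no list had an adjusted p below 0.05.

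No transporter passed the test between BPA and vehicle: 0 of 9 were called by limma (Benjamini-Hochberg adjusted p under 0.05), where 1 of 13376 genes was called (0.00748%), and limma-voom on recovered reads also called 0. At an unadjusted p under 0.05, 2 of the 9 were higher in BPA (Slc7a8 and Slc1a1; 4.18% of all tested genes) and 0 were lower (6.83% of all tested genes). In direction alone, 7 lay above 0 and 2 below it, and the median log2 change was 0.21 against -0.01 over all genes tested. Groups without overlap were found for Slc1a1 alone, higher in BPA, a state shared by 3.23% of tested genes, and for none in the lower direction, where 4.66% of tested genes had it.

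**Figure D1:**
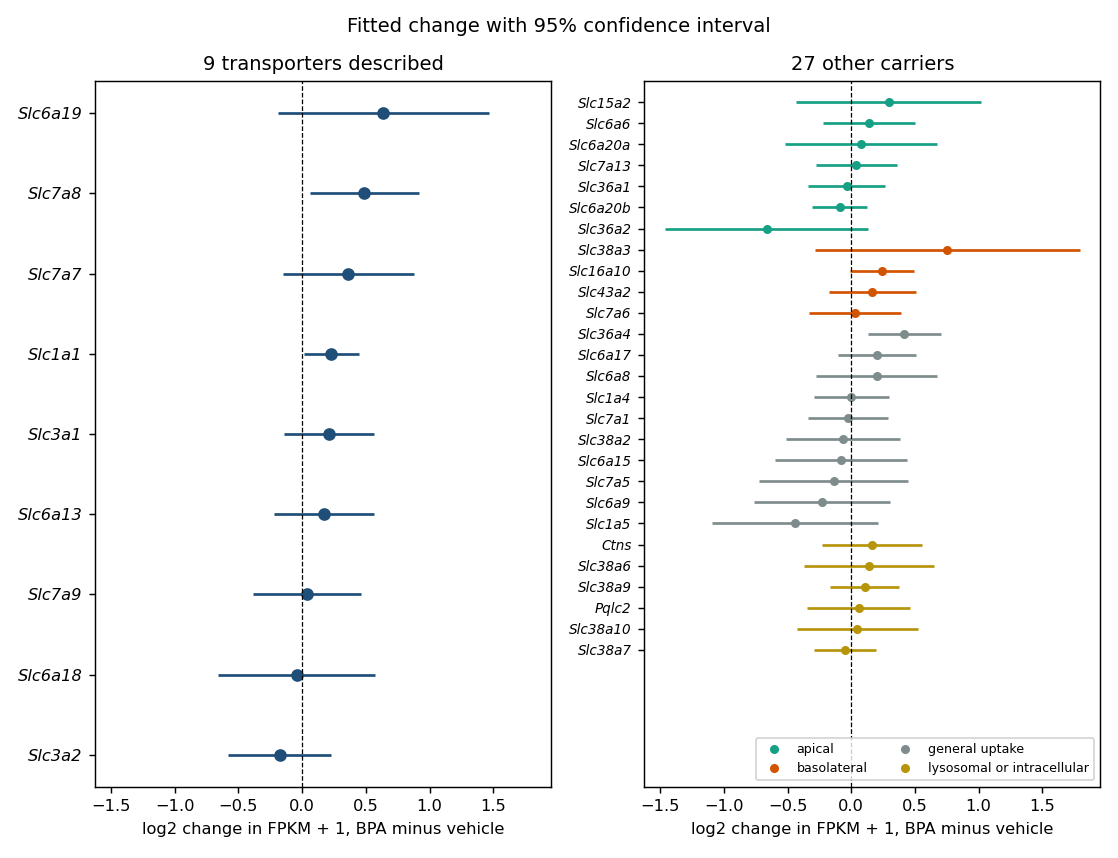
Fitted log2 change in FPKM + 1 (BPA minus vehicle, x axis) with its 95% confidence interval for the 9 transporters (left) and for 27 other carriers by site (right). Slc7a8 and Slc1a1 on the left and Slc36a4 on the right are the genes whose interval lies above 0.

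In vehicle the 9 transcripts fell into 4 tiers. Slc3a1 was the most abundant at 184 ± 12.9 FPKM (SD, n = 4), followed by Slc6a18 at 85.3 ± 26.3 FPKM. Then came Slc7a7 at 43.2 ± 5.46, Slc3a2 at 39.9 ± 5.59, Slc1a1 at 39.2 ± 2.43, Slc6a19 at 37.5 ± 13.6 and Slc7a9 at 33.5 ± 4.94 FPKM, whose ranges over the 4 libraries overlapped from each to the next. The lowest were Slc6a13 at 16.2 ± 3.45 and Slc7a8 at 13.8 ± 2.81 FPKM, with overlapping ranges. The ranges of Slc3a1 and Slc6a18 did not overlap, nor did those of Slc7a9 and Slc6a13. The lowest Slc6a18 value (52.7 FPKM, vehicle replicate 4) was below the Slc6a19 value of the same library (54.8 FPKM). The sum of the 9 was 463 to 517 FPKM in vehicle and 485 to 641 FPKM in BPA, of which Slc3a1 made up 34.2% to 42.1%.

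**Figure D2:**
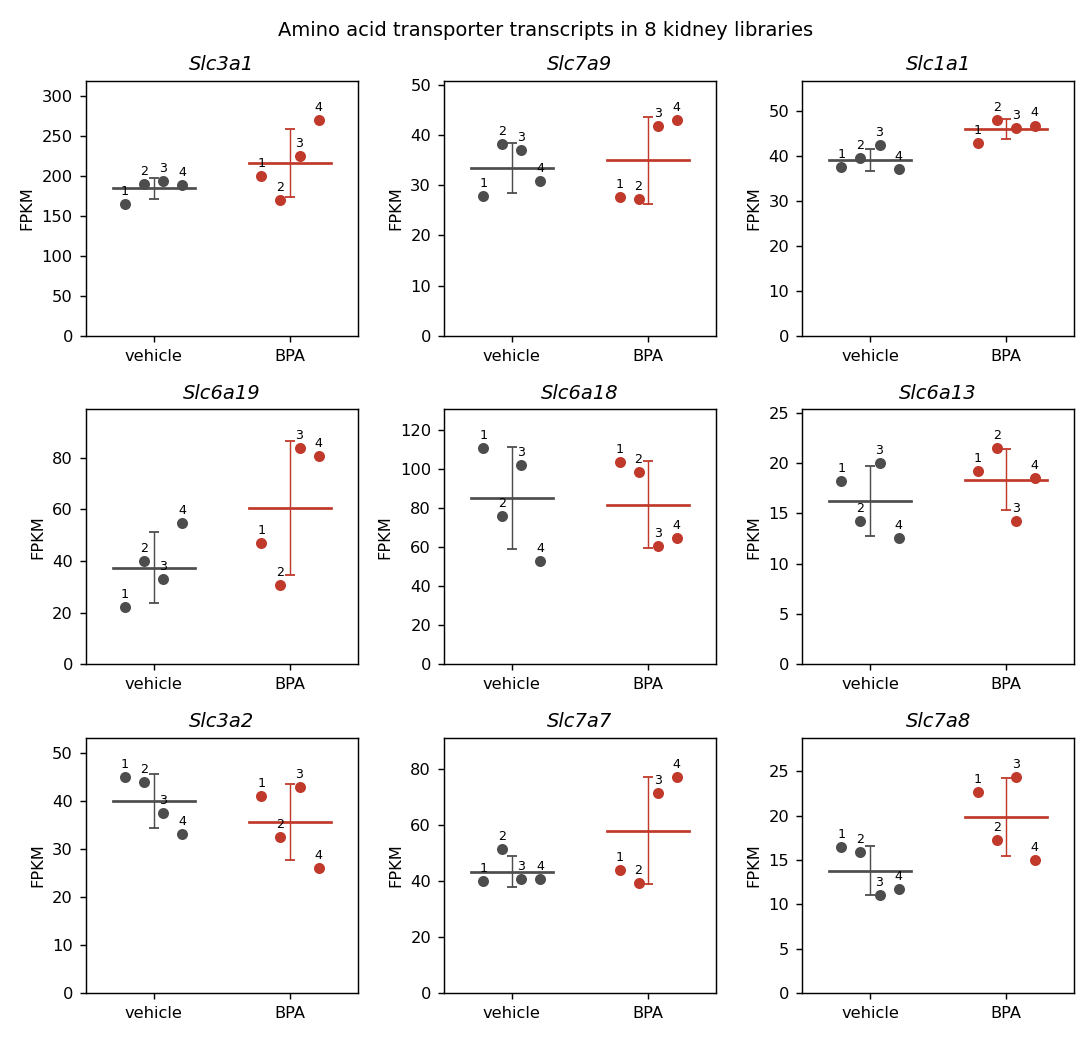
FPKM of the 9 transporters in each library (points, numbered by replicate), with the group mean (bar) and SD (whiskers, n = 4). Every BPA point lies above every vehicle point for Slc1a1 alone, and BPA replicates 3 and 4 lie at 71.3 and 77.0 FPKM for Slc7a7 and at 83.6 and 80.5 FPKM for Slc6a19.

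Of the brush-border carriers, Slc1a1 showed the closest values between libraries of a group. Slc1a1 (EAAT3), which takes up glutamate and aspartate, was at 37.6, 39.5, 42.5 and 37.2 FPKM in vehicle replicates 1 to 4 and at 43.0, 48.1, 46.3 and 46.8 FPKM in BPA replicates 1 to 4. The groups did not overlap, but BPA replicate 1 lay only just above vehicle replicate 3. The log2 change was 0.23 ± 0.095 (SE; limma adjusted p = 0.440), and Slc1a1 had the lowest spread of the 9 genes in both groups, with a coefficient of variation of 6.19% in vehicle and 4.73% in BPA. The change was alike in replicates 1 and 2 (0.23) and in replicates 3 and 4 (0.22).

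Slc3a1, the heavy chain of the cystine carrier, was at 165, 190, 193 and 189 FPKM in vehicle and at 200, 170, 225 and 270 FPKM in BPA. BPA replicates 3, 4 and 1 were above all vehicle libraries and BPA replicate 2 was among them. The log2 change was 0.21 ± 0.156 (limma adjusted p = 0.605), with 0.10 without BPA replicate 4 and 0.32 without BPA replicate 2. Prepl, which overlaps Slc3a1, was at 27.9 to 36.8 FPKM in vehicle and at 41.0 to 56.6 FPKM in BPA, and was also highest in BPA replicate 4. The part of Prepl in the Slc3a1 values was not tested. Slc7a9, the light chain, was at 27.9, 38.1, 37.0 and 30.8 FPKM in vehicle and at 27.7, 27.3, 41.7 and 43.0 FPKM in BPA. BPA replicates 1 and 2 were below every vehicle library and replicates 3 and 4 above every one, and the log2 change was 0.04 ± 0.187 (limma adjusted p = 0.943), with a sign that turned when libraries were rescaled to a common total (-0.02) or weighted (-0.10).

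Across the 8 libraries the heavy and the light chain of the cystine carrier varied together, as each did with genes outside the carrier. Between the heavy and the light chain Pearson's r of log2 levels was 0.78 (exact permutation p = 0.00952, adjusted over 5 pairs 0.0476). Spearman's rho was 0.69 (exact permutation p = 0.0694, adjusted 0.173), and r was 0.64 over the 6 libraries left without the 2 farthest from the median of Slc7a9. For deviations from the group means r was 0.86. Slc3a1 had an r of 0.90 with Slc7a7 and of 0.88 with Slc6a19, and Slc7a9 had 0.83 with Slc7a7. Differences between these r were not tested. The ratio of Slc7a9 to Slc3a1 stayed within 0.163 to 0.201 in vehicle and 0.139 to 0.185 in BPA, a 1.45-fold range over all 8 libraries and the narrowest of the 5 ratios examined. The Slc3a1 transcript thus outnumbered that of its classical light chain in every library. Slc7a13 (AGT1), the other light chain that pairs with Slc3a1 in the late proximal tubule, was more abundant than both, averaging 594 ± 93.5 FPKM in vehicle against 606 ± 28.9 in BPA (log2 change 0.04 ± 0.140, limma adjusted p = 0.921, with a sign that turned on rescaling to a common total).

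The neighbouring Slc6 genes moved in opposite directions from library to library. Slc6a19 was at 22.2, 39.9, 33.1 and 54.8 FPKM in vehicle and at 47.0, 30.9, 83.6 and 80.5 FPKM in BPA. BPA replicates 3 and 4 were above every vehicle library, whereas BPA replicates 1 and 2 lay within the vehicle range. Its log2 change of 0.64 ± 0.363 had the widest 95% confidence interval of the 9, -0.19 to 1.46 (limma adjusted p = 0.514). It was also the largest of the 9, but fell to 0.42 without vehicle replicate 1 and to 0.47 without BPA replicate 4, below that of Slc7a8 in the same fits (0.58 and 0.61). Slc6a18 was at 111, 75.9, 102 and 52.7 FPKM in vehicle and at 104, 98.6, 60.9 and 64.5 FPKM in BPA. The groups overlapped throughout and the log2 change was -0.04 ± 0.271 (limma adjusted p = 0.957), with a sign that turned to 0.04 under quantile normalization and to 0.03 with a common total of nuclear protein-coding genes.

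Libraries with much Slc6a19 had little Slc6a18. Pearson's r was -0.80 over 8 libraries (exact permutation p = 0.0223, adjusted over 5 pairs 0.0558), Spearman's rho was -0.76 (exact permutation p = 0.0368, adjusted 0.173), and r was -0.81 over the 6 libraries without the 2 farthest from the median of Slc6a18. For deviations from the group means r was -0.90. Each set of replicates with like Arntl levels held 4 libraries, too few for a correlation of its own. The ratio of Slc6a18 to Slc6a19 was 4.99, 1.90, 3.08 and 0.962 in vehicle and 2.20, 3.19, 0.728 and 0.801 in BPA, a 6.86-fold range, so the more abundant of the pair changed in 3 libraries: vehicle replicate 4 and BPA replicates 3 and 4. The group ranges of this ratio overlapped over most of their width. The GC contents of the pair are 49.2% and 48.8%, and the part of GC content in this pattern was not tested.

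**Figure D3:**
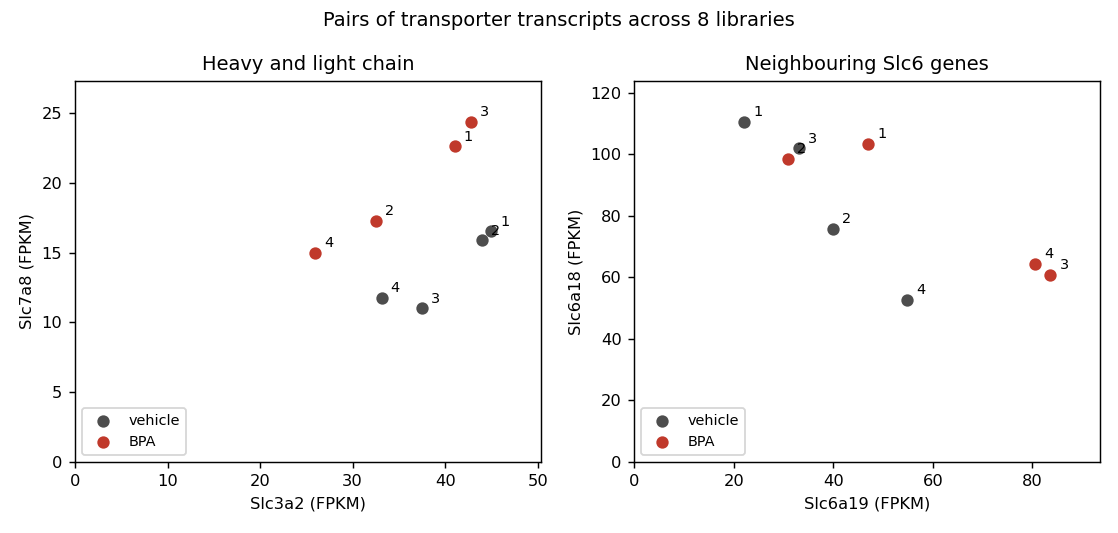
FPKM of Slc7a8 against its heavy chain Slc3a2 (left) and of Slc6a18 against its neighbour Slc6a19 (right) in 8 libraries, numbered by replicate. On the left the BPA libraries lie above the vehicle libraries at like Slc3a2, with ratios of 0.532 to 0.578 against 0.294 to 0.367; on the right Slc6a18 falls as Slc6a19 rises.

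Markers of the proximal tubule and its segments moved with some of these genes and not with others. The mean level of the 4 early-segment markers correlated over the 8 libraries with Slc7a7 (r = 0.93), Slc3a1 (0.88) and Slc6a19 (0.85) and inversely with Slc6a18 (-0.63). The 5 late-segment markers correlated with Slc6a13 (0.76), Slc6a18 (0.67) and Slc1a1 (0.66). They correlated little with Slc6a19 (-0.26), Slc3a1 (-0.04), Slc7a7 (0.03) or Slc7a9 (0.03). Cyp7b1 had the widest spread of the 5 late-segment markers (2.39 to 72.7 FPKM in vehicle), and no correlation was computed without it. The 12 markers of the whole proximal tubule correlated with Slc7a9 (0.86), Slc7a7 (0.85), Slc6a19 (0.73) and Slc3a1 (0.72). They correlated inversely with Slc6a18 (-0.68) and Slc6a13 (-0.52), and little with Slc1a1 (0.14), Slc7a8 (0.12) or Slc3a2 (-0.07). These correlations share libraries, depth and scaling and are given as a description. The part of these markers in the transporter values was not tested.

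Slc6a13 (GAT2) carries GABA and taurine at the basolateral membrane. It was at 18.2, 14.2, 19.98 and 12.6 FPKM in vehicle and at 19.2, 21.5, 14.2 and 18.5 FPKM in BPA, with overlapping groups and BPA replicate 2 highest of all. The log2 change was 0.17 ± 0.173 (limma adjusted p = 0.694), with 0.32 in replicates 1 and 2 and 0.03 in replicates 3 and 4. Leaving out vehicle replicate 4 gave 0.0653, leaving out BPA replicate 2 gave 0.0974 and leaving out BPA replicate 3 gave 0.28.

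Of the basolateral exchangers, Slc7a8 gave the lowest p of the 9 genes. Slc7a8 (LAT2), which exchanges neutral amino acids, was at 16.5, 15.9, 11.03 and 11.8 FPKM in vehicle and at 22.6, 17.3, 24.4 and 15.0 FPKM in BPA. BPA replicates 1, 2 and 3 exceeded every vehicle library and BPA replicate 4 did not. The log2 change was 0.49 ± 0.188 (95% confidence interval 0.06 to 0.91, limma adjusted p = 0.421), with 0.27 in replicates 1 and 2 and 0.70 in replicates 3 and 4. Slc3a2, its heavy chain, which also serves other carriers and integrin signalling, was at 45.0, 44.0, 37.5 and 33.1 FPKM in vehicle and at 41.1, 32.5, 42.8 and 25.96 FPKM in BPA. The groups overlapped, BPA replicate 4 was lowest, and the log2 change of -0.18 ± 0.178 (limma adjusted p = 0.696) became -0.04 without that library.

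Set against its heavy chain, Slc7a8 separated the groups. The ratio of Slc7a8 to Slc3a2 was 0.367, 0.362, 0.294 and 0.355 in vehicle and 0.551, 0.532, 0.570 and 0.578 in BPA. The groups did not overlap, and the log2 ratio was -1.54 ± 0.151 (SD, n = 4) in vehicle and -0.84 ± 0.054 in BPA, a difference of 0.70 that ran from 0.63 to 0.73 with any library left out. Over all 8 libraries r between the 2 genes was 0.39 (exact permutation p = 0.336, adjusted over 5 pairs 0.479). Spearman's rho was 0.33 (exact permutation p = 0.428, adjusted 0.713), and r was 0.39 without the 2 libraries farthest from the median of Slc7a8. For deviations from the group means r was 0.94. The GC contents of the pair are 52.8% and 53.4%, and the part of GC content in this ratio was not tested. This ratio is a description of 2 genes that each failed the adjusted test. Of the 5 ratios examined it was the one without overlap, and no test was made of it. Among single tested genes, 3.23% had groups without overlap in the higher direction and 4.66% in the lower. No such share was computed for ratios of other gene pairs.

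**Figure D4:**
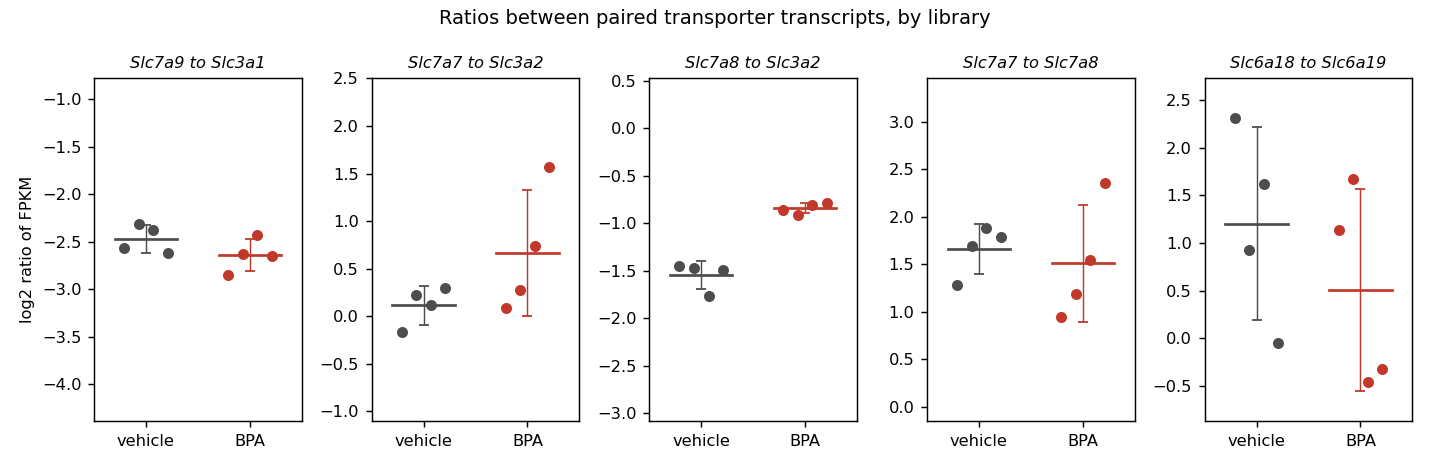
Log2 ratio of FPKM between 5 pairs of transporter transcripts in each library (points), with group mean (bar) and SD (whiskers, n = 4). All panels span the same number of log2 units. Only the ratio of Slc7a8 to Slc3a2 has groups that do not overlap.

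Slc7a7 (y+LAT1), the exporter of dibasic amino acids, did not follow Slc3a2. It was at 40.1, 51.4, 40.6 and 40.7 FPKM in vehicle and at 43.7, 39.4, 71.3 and 77.0 FPKM in BPA. BPA replicates 3 and 4 stood above all other libraries, and BPA replicates 1 and 2 were within or below the vehicle range. The log2 change was 0.36 ± 0.227 (limma adjusted p = 0.545), with -0.13 in replicates 1 and 2 and 0.85 in replicates 3 and 4, and it was 0.21 without BPA replicate 4. The ratio of Slc7a7 to Slc3a2 was 0.890, 1.17, 1.08 and 1.23 in vehicle and 1.06, 1.21, 1.66 and 2.97 in BPA. That of Slc7a7 to Slc7a8 was 2.42 to 3.68 in vehicle and 1.93 to 5.13 in BPA. Both ratios overlapped between the groups. Between Slc7a7 and Slc3a2 r was -0.28 (exact permutation p = 0.4997, rho -0.07, exact permutation p = 0.882) and 0.55 without the 2 libraries farthest from the median of Slc7a7. Between Slc7a7 and Slc7a8 r was 0.36 (exact permutation p = 0.383, rho 0.10, exact permutation p = 0.840) and 0.22 without the same 2 libraries. Adjusted over the 5 pairs, these r had p = 0.4997 and 0.4786 by the exact permutation test, and these rho had p = 0.882 for both.

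**Figure D5:**
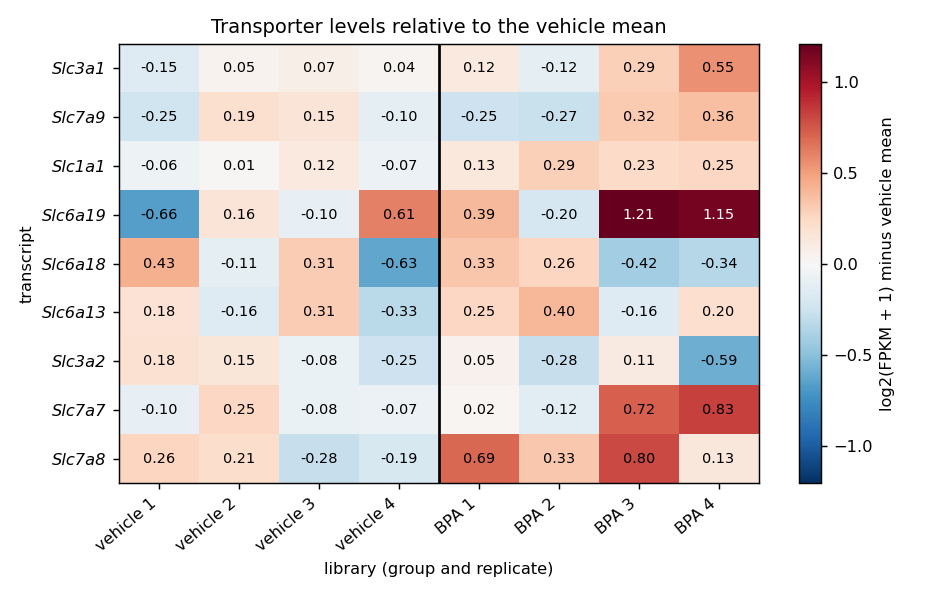
Log2(FPKM + 1) of each transporter (rows) in each library (columns) minus its vehicle mean, with the value printed in each cell. BPA replicates 3 and 4 reach 1.21 and 1.15 for Slc6a19 and 0.72 and 0.83 for Slc7a7, while Slc1a1 lies between 0.13 and 0.29 in all 4 BPA libraries.

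The spread differed between the 9 genes and, for several of them, between the groups. Among 6381 genes with a mean of at least 5 FPKM, the median coefficient of variation was 12.7% in vehicle and 16.7% in BPA. Slc6a19 had 36.4% in vehicle and 42.6% in BPA, Slc6a18 had 30.8% and 27.3%, and Slc7a7 had 12.6% and 33.0%. In the same order, Slc3a1 had 6.97% and 19.6%, Slc7a9 14.8% and 24.6%, Slc3a2 14.0% and 22.0%, and Slc7a8 20.3% and 22.2%. For Slc6a13 the values were 21.2% and 16.5%, and for Slc1a1 6.19% and 4.73%. The mean of the 9 genes, each centred and scaled over the libraries, was -0.79 to -0.07 in vehicle and -0.11 to 0.65 in BPA, in units of each gene's SD. Among pairs of the 9, Slc3a1 and Slc7a7 had the highest r (0.90), followed by Slc3a1 and Slc6a19 (0.88). The mean does not stand for each of the 9: its r was 0.79 with Slc7a7 but 0.24 with Slc6a13, -0.05 with Slc6a18 and -0.07 with Slc3a2. Of 11231 other protein-coding genes, those most like this mean were Cab39l (r = 0.964), Eea1 (0.964), Lamp2 (0.952), Nox4 (0.9501) and Ptgfrn (0.947), over 8 libraries. They are the highest of 11231 values over few libraries, where high r can arise by chance, and no test was made of them.

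Other carriers of amino acids showed no called change. Of 29 tested carriers and membrane partners, 0 were called by limma. An unadjusted p under 0.05 was reached by 1 higher gene and 0 lower genes, beside 4.18% and 6.83% of all tested genes. In direction alone 19 lay above 0, the median log2 change being 0.06. With a common total 15 lay above 0 (median 0.0067), with library weights 14 (median -0.0066), and without both replicates 4 13 of 28 (median -0.0067). At that unadjusted threshold limma-voom gave 2 higher and 0 lower, and called 0. The higher gene was Slc36a4, a proton-coupled carrier of low abundance, at 1.09, 1.30, 0.899 and 0.713 FPKM in vehicle and at 1.89, 1.79, 1.52 and 1.44 FPKM in BPA. Its groups did not overlap, a state shared by 3.23% of tested genes in the higher direction, and the log2 change was 0.42 ± 0.128 (limma adjusted p = 0.374).

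The membrane partner that brings Slc6a18 and Slc6a19 to the brush border in kidney was higher in mean without passing the test. This partner, Cltrn (collectrin), averaged 982 ± 116 FPKM in vehicle against 1188 ± 240 in BPA (log2 change 0.25 ± 0.187, limma adjusted p = 0.601). BPA replicates 1, 2 and 3 had 1306 to 1310 FPKM and BPA replicate 4 had 827 FPKM, the lowest of all 8, and without that library the change was 0.42.

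Among the other apical carriers, 4 were higher and 3 lower in direction. The low-abundance proline and glycine carrier Slc36a2 had a log2 change of -0.66 ± 0.352 (0.926 ± 1.01 FPKM in vehicle, 0.0904 ± 0.106 in BPA). Slc36a2 was at 1.48 and 2.07 FPKM in vehicle replicates 2 and 4 and at 0.230 FPKM or less in the other 6 libraries, and it fell below the filter without either of the former. The 6 adipocyte markers summed to 43.1 and 95.7 FPKM in the same libraries and to 1.52 to 10.4 FPKM in the others, and their part in the Slc36a2 values was not tested. The peptide carrier Slc15a2 had a change of 0.29 ± 0.319, and of -0.0428 without vehicle replicate 4. The imino acid carrier Slc6a20b (34.4 FPKM in vehicle, 32.3 in BPA) and the taurine carrier Slc6a6 (33.4 and 36.9 FPKM) had changes of -0.09 ± 0.095 and 0.14 ± 0.158. All 4 of the other basolateral carriers were higher in direction. Slc16a10, a uniporter of aromatic amino acids, went from 7.995 ± 0.838 to 9.65 ± 1.02 FPKM (log2 change 0.24 ± 0.111), Slc38a3, a glutamine carrier, from 4.98 ± 3.07 to 8.18 ± 3.34 FPKM (0.75 ± 0.458), Slc43a2 from 13.4 ± 2.47 to 15.1 ± 2.12 FPKM (0.17 ± 0.149), and Slc7a6 had 0.03 ± 0.159. Without vehicle replicate 4, which held muscle and adipocyte transcripts, the change of Slc38a3 was 0.30 and that of Slc43a2 0.0591. Adjusted limma p-values of these 8 genes ran from 0.462 (Slc16a10) to 0.953 (Slc7a6).

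Of 10 tested carriers of general uptake, 4 were higher and 6 lower in direction. Beyond Slc36a4, those with the smallest p were the glutamine carrier Slc1a5 (-0.44 ± 0.286), Slc6a17 (0.20 ± 0.136) and the glycine carrier Slc6a9 (-0.23 ± 0.234). The change of Slc1a5 was -0.16 without vehicle replicate 4, and that of Slc6a9 was -0.0585 without BPA replicate 2. Of 6 lysosomal and intracellular carriers, 5 were higher, and those with the smallest p were the cystine exporter Ctns (0.16 ± 0.173), Slc38a9 (0.11 ± 0.119), Slc38a6 (0.14 ± 0.225) and Slc38a7 (-0.05 ± 0.106). None of these 7 genes had an adjusted limma p below 0.557.

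Enzymes that use the reclaimed amino acids were split. Of 29 tested, 0 were called by limma, and the median log2 change was -0.02. An unadjusted p under 0.05 was reached by 2 higher and by 2 lower ones, beside 4.18% and 6.83% of all tested genes. Oat, which acts on ornithine, averaged 37.5 ± 5.44 FPKM in vehicle against 48.4 ± 5.44 in BPA (0.37 ± 0.134, limma adjusted p = 0.408). The mitochondrial enzymes Shmt2 and Aldh4a1 had changes of -0.36 ± 0.156 and -0.33 ± 0.136 (limma adjusted p = 0.453 and 0.432).

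Among 8 transcription factors of the tubule and of the amino acid response, 0 were called by limma and 1 was lower at an unadjusted p under 0.05 (6.83% of all tested genes). That was Cebpb, which averaged 21.2 ± 7.14 FPKM in vehicle against 7.24 ± 4.20 in BPA (-1.54 ± 0.452, adjusted p = 0.365). Atf4, the factor that induces amino acid carriers including Slc3a2 when amino acids are short, was at 41.0, 34.3, 47.0 and 39.9 FPKM in vehicle replicates 1 to 4 and at 28.6, 32.1, 28.0 and 6.95 FPKM in BPA. Its groups did not overlap, a state shared by 4.66% of tested genes in the lower direction. The log2 change of Atf4 was -0.92 ± 0.417 (limma adjusted p = 0.461), and -0.44 without BPA replicate 4. BPA replicate 4, where Atf4 was lowest, was also the library with the lowest Slc3a2. The other libraries did not keep this order. Slc3a2 was at 37.5 FPKM in vehicle replicate 3, where Atf4 was highest, and at 42.8 FPKM in BPA replicate 3, where Atf4 was at 28.0 FPKM. Hnf4g had a change of 0.21 ± 0.132 (limma adjusted p = 0.542). The part of these factors in the transporter values was not tested.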

How the data were processed

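Kidney mRNA of 8 libraries was measured by RNA sequencing. The authors deposited 1 table of FPKM values with gene lengths; per the submitters' processing notes GRCm38 and DESeq2 1.20.0 were used, with no role stated, and the sources used here do not give the aligner, counter or strand setting. The BPA columns match the labels by name; the remaining 4, each named by 1 letter with the replicate number, were assigned to vehicle by elimination. FPKM times gene length gave whole reads, within 0.01 reads, for 100% of low values (up to 20 reads) in each library.

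Values were transformed to log2(FPKM + 1) and fitted with limma 3.58.1 (R 4.3.3) over genes with a mean of at least 0.5 FPKM, with a trended, robust variance, no covariate and Benjamini-Hochberg adjustment over all genes tested; the scale understates changes of low genes. SE and 95% intervals come from that fit. Marker lists were compared by 2-sided exact permutation over 70 assignments, and pairs of genes over 40320 pairings. Shared transcript bases came from blastn 2.17.0 (identity of at least 90%) on GENCODE M21 transcripts. The fit was also run on simulated data with known changes, and it missed some of them.

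The members, gene lists and alternatives were chosen with earlier results of these data known. Beyond the 9 genes, the text names up to 4 tested genes of each list with the smallest p, the 3 most abundant other apical and basolateral carriers, and the 5 genes most like the mean of the 9. Alternatives were other pseudocounts, filters, scalings, variance models, limma-voom on recovered reads (0 genes called), a replicate block, a GC correction and libraries left out. Other steps ran in Python 3.11.15 with scipy 1.17.1, matplotlib 3.10.9, pandas 2.3.3 and numpy 2.4.6. A few genes covered by this rule are left unreported. Protein sequences were not used here.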

Additional observations from a re-analysis of the deposited data

Results flagged for a closer look

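In groups of 4 libraries, 84 groups of values were examined for a single library far from the others by Dixon's ratio, the gap to the nearest library over the whole range, and 11 passed its 95% critical value; chance gives about 1 in 20. Among the transporters, Slc3a1 was low in vehicle replicate 1 (165 FPKM against 189 to 193 in the others), and Slc7a7 was high in vehicle replicate 2 (51.4 FPKM against 40.1 to 40.7). The ratio of Slc7a8 to Slc3a2 was low in vehicle replicate 3 (0.294 against 0.355 to 0.367).

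BPA replicate 4 stood apart in 5 measures: Cltrn was low (827 FPKM against 1306 to 1310), Atf4 was low (6.95 FPKM against 28.0 to 32.1), Slc6a6 was high (46.3 FPKM against 32.8 to 34.7), Slc43a2 was high (18.3 FPKM against 13.7 to 14.4), and the mitochondrial share of reads was high (14.2% against 9.66% to 9.85%). Vehicle replicate 2 stood apart in 3 more: Slc6a6 was high (42.7 FPKM against 30.1 to 30.7), Cebpb was low (10.5 FPKM against 24.0 to 25.2), and the mitochondrial share was high (8.33% against 7.02% to 7.19%).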

How the results depend on the processing

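Under all 24 alternatives, 0 of the 9 transporters and 0 of the other carriers were called, and the transporters' median log2 change ran from 0.11 to 0.31, within 1 SD of its spread between libraries. The directions of Slc3a1, Slc3a2, Slc7a7, Slc7a8, Slc6a13, Slc6a19 and Slc1a1 were kept under all 24. The number of transporters with an unadjusted p under 0.05, 2 in the report, was 0 on rescaling to a common total and 1 without both replicates 4, and leaving out 1 library gave 0 (without vehicle replicate 4 or BPA replicate 3) to 3 (without BPA replicate 2); with a term for replicates 1 and 2 against 3 and 4 it was 3. Over all genes, 1 was called; 0 were called with a common total of nuclear protein-coding genes, limma-voom on recovered reads or protein-coding genes only, 8 with library weights, 2 with the replicate term, and 0 to 4 with 1 library left out, with 0 when vehicle replicate 1, vehicle replicate 3 or BPA replicate 2 was the one left out and 4 without BPA replicate 3.

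Between the groups, deviations of same-numbered libraries had correlations of -0.033 to 0.138, not all above 0.1. Those of libraries with different numbers ran from -0.219 to 0.194. The ranges overlap and the correlations are weak, so they cannot decide whether the numbers pair the samples. With a replicate block 0 genes were called and 1 transporter had an unadjusted p under 0.05.

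Signs turned for small changes. Slc7a9 had -0.0210 with a common total, -0.104 with library weights, -0.103 without both replicates 4, and -0.0682 to 0.144 with 1 library left out. Slc6a18 had 0.0262 with a common total of nuclear protein-coding genes, 0.0428 with quantile normalization, 0.0694 with weights, and -0.252 to 0.0998 with 1 library left out. With a common total Slc7a13 had -0.0221 and Slc7a6 -0.00176; with GC removed Slc7a13 had -0.0687 and Slc38a7 0.0760; with weights Slc7a6 had -0.0644 and Slc38a6 -0.0172. Slc38a7 had 0.00606 with the nuclear total. Without both replicates 4, Slc15a2 had -0.00681, Slc6a6 -0.00660, Slc43a2 -0.0299, Slc7a6 -0.0382 and Ctns -0.0355. With 1 library left out Slc15a2 ran from -0.0428 to 0.432, Slc7a13 from -0.0197 to 0.140, Slc7a6 from -0.0790 to 0.0974, Ctns from -0.00950 to 0.273 and Slc38a7 from -0.112 to 8.38e-05. The cause was not tested. The other 19 of 27 genes examined beyond the transporters kept their sign. Of the 5 ratios, none moved by more than 1 SD. With 4 libraries a group, their number limits the precision more than depth does.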
